A study of Mus musculus with 6 samples.

Results

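The genes described here are the interleukin-1 (IL-1) receptor family of mouse: Il1r1, Il1r2, Il1rl1, Il1rl2, Il18r1 and Il18rap, which form a cluster on chromosome 1, with Il1rap on chromosome 16 and Sigirr on chromosome 7. The 8 genes were taken by name from the 55573 genes counted, and all 8 were among the 13347 genes that passed the count filter. The family was selected on the differences in expression between Nfkb2-/- and wild type already seen in these 6 libraries, so the values of the 8 genes, and any count of them called in the fit over all genes, are a description and not a test of the family. RNA was counted in regulatory T cells (Tregs) sorted from the spleen of bone marrow chimeras, whose blood cells come from transplanted marrow. The Tregs were Nfkb2-/- in 3 libraries and wild type in 3, and the labels call the chimeras bi-parental and the libraries biological repeats. They state a sorted purity above 90% and no treatment, and the blood cells that a host may have kept are not described. All cells were rested in medium for 2 h before lysis, so the levels are those after this rest.

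Receptors of the IL-1 family pair a ligand-binding chain with an accessory chain, and the paired TIR domains on the cell's inside recruit the adaptor MYD88 and IRAK kinases, which switch on NF-kB and MAP kinases. The receptor ST2, encoded by Il1rl1, binds IL-33, and IL-18R1, encoded by Il18r1, binds IL-18. ST2 marks Tregs of tissues such as gut and fat, where IL-33 supports their growth. IL1R2 binds IL-1 but has no TIR domain and so acts as a decoy, and SIGIRR restrains signalling of the family.

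Nfkb2, the gene of p100, which is cut to the NF-kB subunit p52, was lower but present in the Nfkb2-/- libraries, at 269, 324 and 271 CPM, against 558, 545 and 556 CPM in wild type. CPM are counts scaled to library size, and counts per gene do not show which exons were read. Library totals ran from 12005273 to 14359439 counts in Nfkb2-/- and from 12499343 to 17278521 in wild type. Foxp3, the defining factor of Tregs, was present in every library, at 448 to 576 CPM in Nfkb2-/- and 407 to 622 CPM in wild type. Xist, the transcript that silences an X chromosome in female cells, was at 592 to 883 CPM in Nfkb2-/- and 1.94 to 16.5 CPM in wild type. In contrast, 4 Y-linked genes summed to 40.0, 138 and 275 CPM in Nfkb2-/- replicates 1 to 3 and 465 to 498 CPM in wild type. The Y-linked sum thus differed widely between the Nfkb2-/- libraries themselves. Sex and genotype therefore cannot be told apart in any comparison here, and every library held counts of both kinds. Wild-type replicate 1 stood apart, correlating across genes with the other libraries at r of 0.941 to 0.955, as a description over genes. Without it, the log2 fold changes were 1.6 for Il1rl1, 1.34 for Il18r1 and 1.41 for Il18rap.

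The 3 adjacent genes of the cluster carry the difference described below, and the DNA just upstream of each is shown because they lie side by side and were higher together. On GRCm38 the cluster spans chr1:40074079-40551705, 477.6 kb, with every gene on the plus strand in the order Il1r2, Il1r1, Il1rl2, Il1rl1, Il18r1 and Il18rap. Il1rl1 (ENSMUSG00000026069) lies at chr1:40429570-40465415, Il18r1 (ENSMUSG00000026070) at chr1:40465552-40500854 and Il18rap (ENSMUSG00000026068) at chr1:40515362-40551705. Only 136 bases separate the annotated end of Il1rl1 from the start of Il18r1, and 14507 separate Il18r1 from Il18rap. The sequences are RefSeq promoter windows of GRCm38.p6, plus strand, 5′ to 3′, cut to bases outside annotated exons. RefSeq held 2 windows for Il1rl1, 3 for Il18r1 and 1 for Il18rap. Stretches that overlapped an annotated exon were left out, so 1 stretch per gene is shown and other start sites are not covered. Capitals mark matches to the GATA letters AGATAA or TGATAA on either strand.
Il1rl1 upstream, chr1:40429320-40429569: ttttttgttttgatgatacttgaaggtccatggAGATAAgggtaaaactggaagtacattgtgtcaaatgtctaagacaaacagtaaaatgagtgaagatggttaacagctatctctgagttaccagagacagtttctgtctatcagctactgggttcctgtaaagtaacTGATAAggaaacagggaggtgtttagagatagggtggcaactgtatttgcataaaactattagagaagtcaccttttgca
Il18r1 upstream, the whole stretch between Il1rl1 and Il18r1, chr1:40465416-40465551: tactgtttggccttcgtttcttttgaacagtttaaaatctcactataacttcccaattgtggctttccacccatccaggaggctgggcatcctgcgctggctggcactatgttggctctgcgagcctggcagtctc
Il18rap upstream, chr1:40515112-40515361: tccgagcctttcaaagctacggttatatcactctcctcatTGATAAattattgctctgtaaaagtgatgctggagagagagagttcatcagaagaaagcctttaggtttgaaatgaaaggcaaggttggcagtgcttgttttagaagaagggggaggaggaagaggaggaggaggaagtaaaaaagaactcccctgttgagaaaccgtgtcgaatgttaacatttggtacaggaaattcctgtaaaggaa

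The stretch upstream of Il1rl1 held 2 GATA matches, that of Il18rap held 1 and that of Il18r1 held 0. Among all distinct RefSeq promoter windows of the same length, 16.5% of 250-base windows and 8.64% of 136-base windows held at least 1. No match was found in these 3 stretches to the NF-kB letters GGG, any 5 bases and CC, present in 46.0% of 250-base and 33.5% of 136-base windows, or to the AP-1 letters TGANTCA, present in 6.73% and 3.84%. Both strands were read. These are letter matches in short windows and were searched with the expression values known. Sites that depart from these exact letters were not searched, so the stretches cannot be said to lack NF-kB sites.

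Among the ligand-binding chains, Il1rl1, the IL-33 receptor ST2, had its 3 highest values in the Nfkb2-/- libraries. It was at 244, 229.7 and 314 CPM in Nfkb2-/- replicates 1 to 3, from 2954, 3263 and 3858 counts, against 99.9, 97.2 and 76.3 CPM in wild-type replicates 1 to 3, from 1852, 1229 and 908 counts. The lowest Nfkb2-/- library stood well above the highest wild-type library, and Nfkb2-/- replicate 3 was the highest of all. The log2 fold change was 1.53 (SE 0.171), a 2.88-fold difference. In bulk libraries more ST2-bearing cells and more RNA per cell cannot be told apart, and counts per gene do not separate the membrane-bound from the soluble form of ST2.

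Il18r1, the ligand-binding chain of the IL-18 receptor, was at 286, 266 and 290.0 CPM in Nfkb2-/- and at 116, 134 and 87.7 CPM in wild type. The genotypes did not overlap, and the Nfkb2-/- libraries lay close together (281 ± 12.5 CPM, SD, n = 3) beside a wider spread in wild type (112 ± 23.2 CPM, SD, n = 3). Its log2 fold change was 1.32 (SE 0.168), a 2.50-fold difference.

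Il18rap, the accessory chain that the IL-18 receptor needs to signal, differed in the same direction. Its levels were 98.5, 103 and 128 CPM in Nfkb2-/- and 40.3, 52.9 and 29.4 CPM in wild type, again without overlap. The log2 fold change was 1.43 (SE 0.222), 2.69-fold. Both chains of the IL-18 receptor were thus higher, and as with Il1rl1 the lowest value of all was in wild-type replicate 3.

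**Figure D1:**
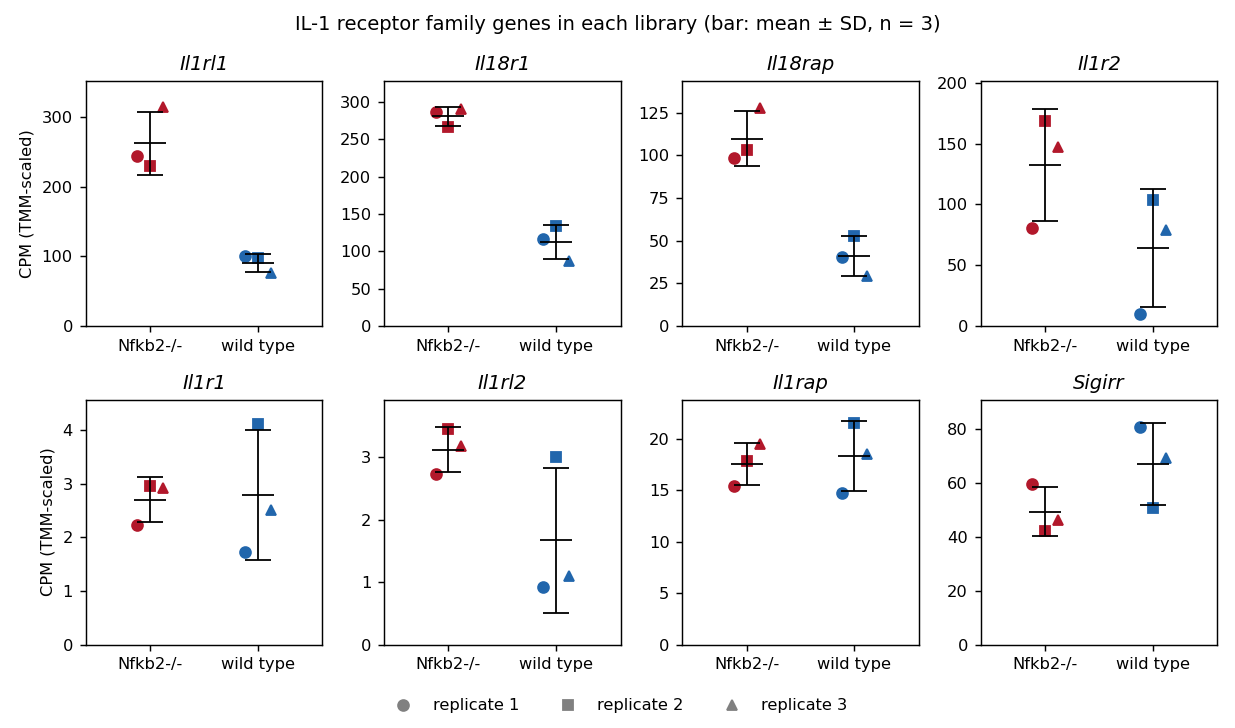
CPM of the 8 receptor genes in each library, on a separate linear axis per gene that starts at 0, with Nfkb2-/- on the left and wild type on the right of each panel; marker shapes give the replicate number, and bars the mean and SD of 3 libraries. Il1rl1, Il18r1 and Il18rap show no overlap between genotypes, whereas the other 5 genes overlap.

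Il1r2, the decoy receptor of IL-1, had the largest SD relative to its mean of the 8 genes in either genotype (chr1:40074079-40125231, ENSMUSG00000026073). It was at 80.7, 169 and 147 CPM in Nfkb2-/- and at 9.65, 104 and 78.8 CPM in wild type, where replicate 1 held 179 counts beside 1317 and 938 in the other libraries. The highest wild-type library exceeded the lowest Nfkb2-/- library. The log2 fold change of 1.05 (SE 0.697) became 0.53 when wild-type replicate 1 was left out and 1.57 when wild-type replicate 2 was, so it rests largely on which wild-type libraries are used.

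Il1r1 (ENSMUSG00000026072, chr1:40225080-40317257), the signalling receptor of IL-1, was scarce, with 27, 42 and 36 counts in Nfkb2-/- and 32, 52 and 30 counts in wild type, or 2.71 ± 0.41 and 2.79 ± 1.22 CPM (SD, n = 3 each). The log2 fold change was -0.03 (SE 0.376), and its sign turned with the library left out, from -0.29 with wild-type replicate 1 left out to 0.36 with wild-type replicate 2 left out. Il1rl2 (ENSMUSG00000070942, chr1:40324610-40367562), the receptor of the IL-36 cytokines, was also scarce, at 2.73, 3.45 and 3.18 CPM in Nfkb2-/- and 0.917, 3.01 and 1.09 CPM in wild type. One wild-type library, replicate 2, lay within the Nfkb2-/- range, and the log2 fold change of 0.92 (SE 0.473) was 1.63 without it, 0.60 without replicate 1 and 0.70 without replicate 3. At 13 to 49 counts per library the difference in Il1rl2 rests on few reads.

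Il1rap (ENSMUSG00000022514, chr16:26581704-26730117, plus strand) encodes the accessory chain shared by ST2, IL1R1 and the IL-36 receptor. Its levels overlapped, at 15.4, 17.9 and 19.5 CPM in Nfkb2-/- and 14.8, 21.6 and 18.6 CPM in wild type, with a log2 fold change of -0.06 (SE 0.192). The antisense gene Gm20319 shares 552 bases of its exons. Without strand, reads of these bases cannot be assigned to either gene, and how they were counted is not described. Sigirr (ENSMUSG00000025494, chr7:141091175-141100572, minus strand), the inhibitory member, was at 59.6, 42.2 and 46.2 CPM in Nfkb2-/- and 80.9, 50.9 and 69.5 CPM in wild type. Its mean was lower in Nfkb2-/-, but Nfkb2-/- replicate 1 lay above wild-type replicate 2, and the log2 fold change was -0.45 (SE 0.206), or -0.29 with wild-type replicate 1 left out.

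Over the family, 3 of 8 genes were called higher and 0 lower by the edgeR quasi-likelihood test over all genes (adjusted p under 0.05), beside 1.42% of all genes tested that were called, 1.01% higher and 0.405% lower. The same 3 genes were higher without overlap between genotypes and 0 were lower without overlap, beside 20.6% of all genes tested without overlap, 10.7% higher and 9.9% lower. Because the genes were chosen with this contrast known, nothing is read from these counts. The median log2 fold change was 0.98 over the 8 genes and -0.03 over all genes tested. When any one of the 3 Nfkb2-/- libraries was left out, 0 of the 8 genes were called. When wild-type replicate 3 was, 2 were called, Il18rap losing its call. With wild-type replicate 1 or 2 left out the number was 3, and a fit with the Y-linked covariate called 0. The log2 fold changes of the 3 genes called, which were selected on these same libraries, are given as a description. Over each library left out in turn, they ran from 1.38 to 1.62 for Il1rl1, from 1.17 to 1.46 for Il18r1 and from 1.24 to 1.65 for Il18rap. With the Y-linked covariate they were 1.77, 1.34 and 1.72.

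**Figure D2:**
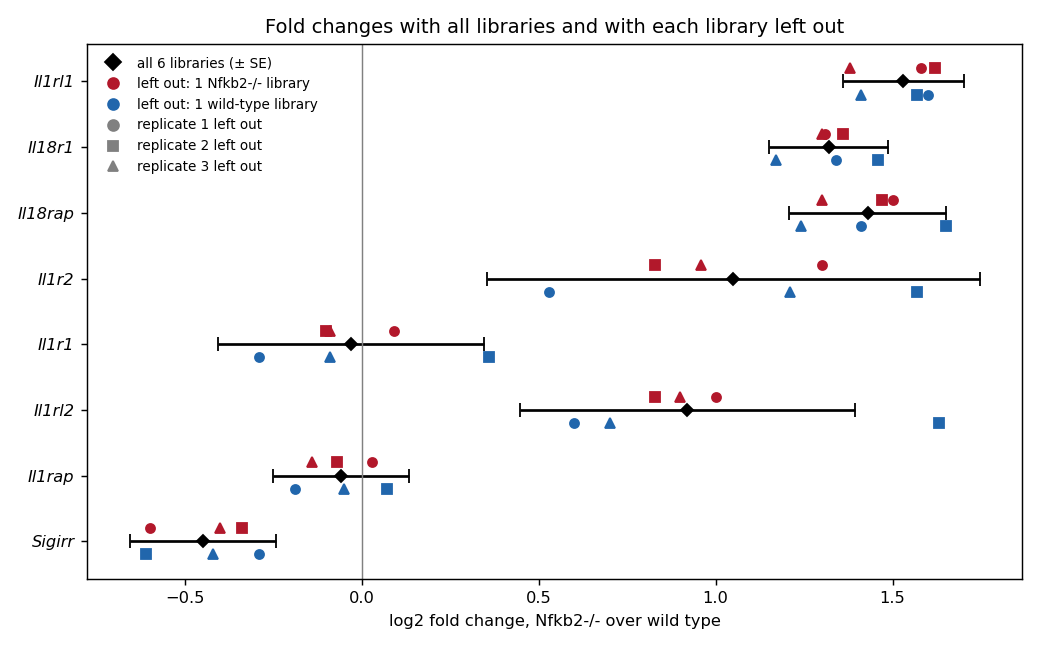
Log2 fold change of each receptor gene, Nfkb2-/- over wild type, on the horizontal axis. Black diamonds with bars are the fit to all 6 libraries and its SE, and coloured points the same fit with 1 library left out. Il1rl1, Il18r1 and Il18rap lie at 1.17 or above in every fit, whereas Il1r1 and Il1rap fall on both sides of 0.

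Levels of different genes were set side by side only per length, as CPM per kilobase of annotated exon. In Nfkb2-/- the order of mean levels was Il1r2 (69.4 ± 24.2), Il18r1 (58.3 ± 2.6), Il1rl1 (38.1 ± 6.54), Il18rap (16.3 ± 2.4), Sigirr (16.2 ± 2.99), Il1rap (1.55 ± 0.184), Il1rl2 (0.458 ± 0.0533) and Il1r1 (0.425 ± 0.0644), each as CPM per kilobase, mean ± SD over 3 libraries. In wild type it was Il1r2 (33.7 ± 25.6), Il18r1 (23.3 ± 4.82), Sigirr (22.1 ± 4.98), Il1rl1 (13.2 ± 1.88), Il18rap (6.05 ± 1.74), Il1rap (1.61 ± 0.298), Il1r1 (0.438 ± 0.191) and Il1rl2 (0.245 ± 0.17). Neighbours in these orders whose library ranges overlapped, and which are therefore not ranked beyond their spread, were Il1r2 with Il18r1, Il18rap with Sigirr and Il1rl2 with Il1r1 in Nfkb2-/-, and Il1r2 with Il18r1, Il18r1 with Sigirr and Il1r1 with Il1rl2 in wild type. Sigirr stood below Il1rl1 in every Nfkb2-/- library and above it in every wild-type library. The inhibitory Sigirr made up 11.3%, 6.64% and 6.91% of the family's summed level per length in Nfkb2-/- replicates 1 to 3. In wild type its share was 34.1%, 13.5% and 22.9%, without overlap. That sum includes Il1rl1, Il18r1 and Il18rap, whose higher levels in Nfkb2-/- lower the share by themselves. The levels of Sigirr alone overlapped between genotypes, and in wild-type replicate 1 Il1r2 made up only 6.5% of the sum. Nothing is therefore read from the share.

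**Figure D3:**
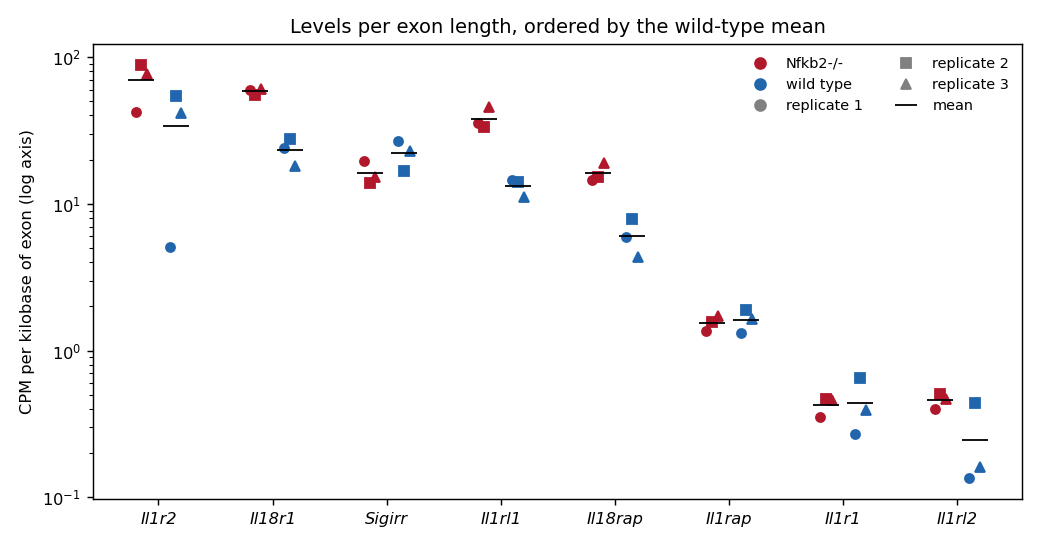
CPM per kilobase of exon on a log axis for each receptor gene, ordered by the wild-type mean, with Nfkb2-/- libraries left of wild-type libraries and dashes for the mean. Il1r2, Il18r1, Sigirr, Il1rl1 and Il18rap lie above Il1rap, and Il1r1 and Il1rl2 lie lowest, under 1 CPM per kilobase in every library.

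Ratios within a library set the receptor chains against each other. Per length, Il18rap over Il18r1 was 0.246, 0.275 and 0.316 in Nfkb2-/- and 0.248, 0.282 and 0.239 in wild type, so the balance between both IL-18 receptor chains overlapped between genotypes. The ratio of Il1rl1 over Il18r1, the genes 136 bases apart, overlapped as well, at 0.598, 0.602 and 0.757 in Nfkb2-/- and 0.602, 0.508 and 0.608 in wild type. The ratio of the accessory chain Il1rap over Il1rl1 did not overlap, at 0.0382, 0.0472 and 0.0378 in Nfkb2-/- and 0.0901, 0.135 and 0.148 in wild type. ST2 transcripts were thus more abundant relative to those of their accessory chain in every Nfkb2-/- library. The decoy Il1r2 over the signalling receptor Il1r1 was 120.4, 191 and 167 in Nfkb2-/- and 18.7, 84.5 and 104 in wild type, without overlap, where Il1r1 rests on at most 52 counts per library. These ratios come from the same contrast as the fold changes and carry no test.

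**Figure D4:**
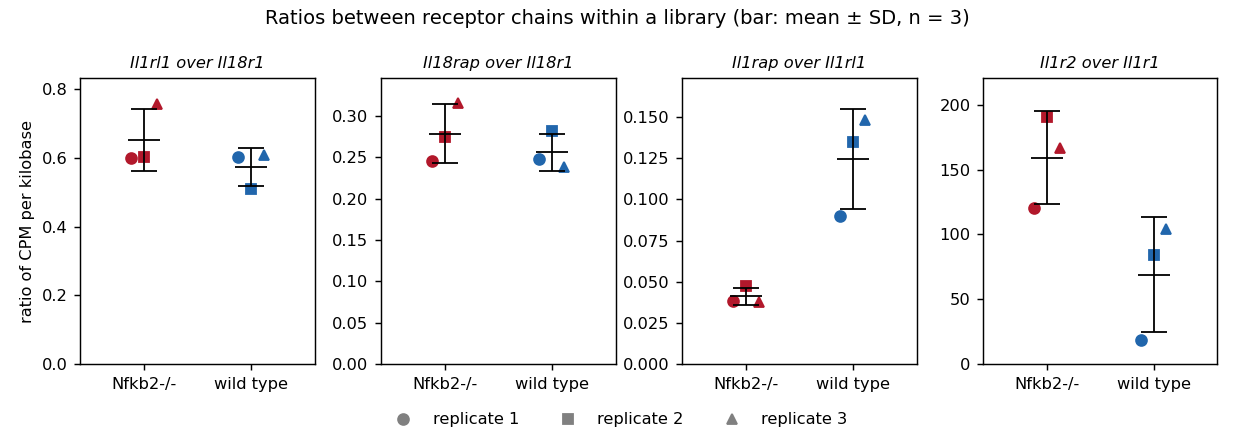
Ratios of CPM per kilobase between pairs of receptor genes in each library, Nfkb2-/- left and wild type right, on linear axes from 0, with bars for the mean and SD of 3 libraries. The 2 panels on the left overlap between genotypes, and the 2 on the right do not.

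Genes around the cluster give a view of the chromosome that the choice of the family did not use. Of 13 other protein-coding genes within 1 Mb, 6 were tested. By edgeR 0 of them were called higher or lower, beside 1.42% of all genes tested. At that share 6 genes are too few to expect a call, so nothing is read from the 0. An unadjusted p under 0.05 was found for 1, and DESeq2 called 1 and limma-voom 0. Map4k4 and Npas2 were higher without overlap between genotypes, beside 10.7% of all genes tested. Map4k4, a kinase gene and the nearest tested neighbour, was at 429, 369 and 367 CPM in Nfkb2-/- and 359, 348 and 325 CPM in wild type (log2 fold change 0.17, SE 0.13, edgeR adjusted p = 0.64). Npas2, a clock transcription factor and the gene that DESeq2 called, was at 3.89, 3.73 and 4.56 CPM in Nfkb2-/- and 1.73, 1.66 and 1.26 CPM in wild type (log2 fold change 1.38, edgeR adjusted p = 0.0651, DESeq2 adjusted p = 0.00426, and edgeR adjusted p = 0.0124 without wild-type replicate 1). The other neighbours had log2 fold changes of 0.08 for Cnot11, 0.17 for Rnf149, -0.13 for Rpl31, whose reads may be shared with near-identical copies, and -0.69 for Tbc1d8. The genes that follow Il18rap, namely Slc9a4, Slc9a2, Mfsd9 and Tmem182, were under 1 CPM in every library and were not tested. The cluster ends 97.5 Mb before Ptprc on the same chromosome, and Nfkb2 lies on chromosome 19.

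**Figure D5:**
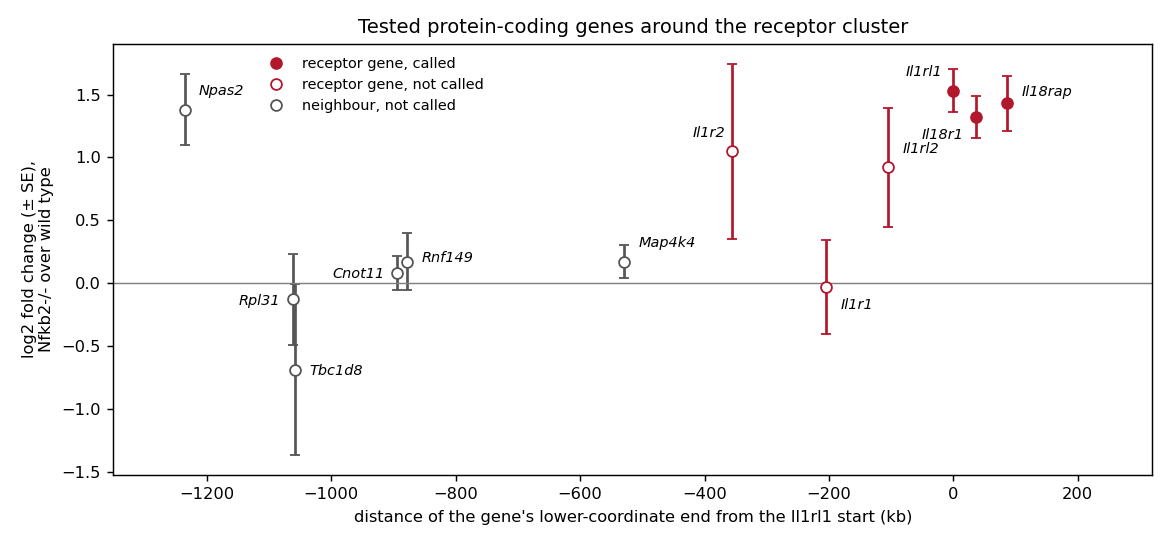
Log2 fold change with SE, Nfkb2-/- over wild type, of the tested protein-coding genes within 1 Mb of the receptor cluster, against their distance in kb from the start of Il1rl1. Filled red points are receptor genes called by edgeR, open red points the other receptor genes and open grey points the neighbours; Il1rl1, Il18r1 and Il18rap lie next to each other between 1.32 and 1.53.

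Ligands of the family were at low levels in these cells. Of 11 ligand and antagonist genes, 4 were tested, with a median log2 fold change of 0.17. By edgeR, DESeq2 or limma-voom 0 were called, with 0 at an unadjusted p under 0.05. Over all genes tested edgeR called 1.42%, so nothing is read from the 0. Il33, the ligand of ST2, had 1 count in the Nfkb2-/- libraries together and 3 in those of wild type. Il18 was at 0.91, 1.27 and 1.30 CPM in Nfkb2-/- and 0.216, 1.11 and 1.01 CPM in wild type (log2 fold change 0.64, edgeR adjusted p = 0.71), and Il1b at 1.24, 2.04 and 2.52 CPM in Nfkb2-/- and 0.701, 4.67 and 3.61 CPM in wild type (log2 fold change -0.60, edgeR adjusted p = 0.76). The soluble IL-18 inhibitor Il18bp was at 7.03, 8.31 and 7.08 CPM in Nfkb2-/- and 8.47, 7.20 and 6.80 CPM in wild type. The remaining receptors of the family, Il1rapl1 and Il1rapl2, had 0 counts in every library.

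Of 16 signalling genes downstream of the receptors, which carry or restrain the TIR signal, 15 were tested. By edgeR, DESeq2 or limma-voom 0 were called, with 1 at an unadjusted p under 0.05. Over all genes tested edgeR called 1.42%. At that share 15 genes are too few to expect a call, so nothing is read from the 0. Their median log2 fold change was 0.02, beside -0.03 over all genes tested. Summed over the list, levels were 1391, 1358 and 1369.9 CPM in Nfkb2-/- and 1374, 1376 and 1321 CPM in wild type. These totals overlapped, but a sum can hide opposite differences. Tab2 was higher without overlap (log2 fold change 0.17), beside 10.7% of all genes tested. Peli1 (-0.13) and Irak3 were lower without overlap, beside 9.9%. Myd88, the shared adaptor, was at 41.6, 54.4 and 51.3 CPM in Nfkb2-/- and 31.8, 51.9 and 50.0 CPM in wild type (log2 fold change 0.14, SE 0.21). The 2 genes with the smallest p were Irak3, an inhibitory IRAK protein, at a log2 difference of -0.55 (SE 0.207, edgeR adjusted p = 0.292), and Tab1, a partner of the kinase TAK1, at -0.57 (SE 0.27, edgeR adjusted p = 0.42). Traf6, the ubiquitin ligase of the pathway, stood at 0.07 (SE 0.126).

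Genes known from ST2-bearing Tregs rose in part. Of 14 such genes 13 were tested, and 3 rose and 0 fell by edgeR, beside 1.01% of all genes tested that rose and 0.405% that fell. DESeq2 called 7 of them, 5 higher and 2 lower, and limma-voom 3. Log2 fold changes were positive for 9 of the 13, beside 6012 of the 13347 genes tested. The median over the 13 was 0.48, beside -0.03 over all genes tested. The 3 that rose by edgeR were Gata3, a transcription factor of type 2 responses, Rora, a nuclear receptor, and the inhibitory receptor gene Klrg1. Gata3 was at 146, 146 and 173 CPM in Nfkb2-/- and 93.6, 93.9 and 80.4 CPM in wild type (log2 fold change 0.80, SE 0.128, edgeR adjusted p = 0.0297). Rora was at 422, 397 and 456 CPM in Nfkb2-/- and 145, 203 and 165 CPM in wild type (log2 fold change 1.32, SE 0.157, edgeR adjusted p = 0.0125), and Klrg1 at 22.6, 24.8 and 31.1 CPM in Nfkb2-/- and 6.85, 11 and 10.0 CPM in wild type (1.5, SE 0.228, edgeR adjusted p = 0.0254). All 3 stood without overlap between genotypes. Areg, which encodes the repair factor amphiregulin made by IL-33-responsive Tregs, was at 114, 142 and 161 CPM in Nfkb2-/- and 12.8, 49.3 and 72.0 CPM in wild type (log2 fold change 1.64, SE 0.516, edgeR adjusted p = 0.201, and 0.00384 without wild-type replicate 1). The type 2 cytokine Il13 stood the other way, at 0.331, 0.141 and 0.163 CPM in Nfkb2-/- and 0.863, 2.14 and 1.68 CPM in wild type (log2 fold change -2.83, edgeR adjusted p = 0.0586, and 0.00217 without wild-type replicate 1). DESeq2 gave Il13 an adjusted p of 0.00902, and edgeR with no count filter 0.00946. Il10 overlapped but had a lower mean in Nfkb2-/-, at 32.6 ± 9.34 CPM against 61.5 ± 31.3 CPM (SD, n = 3 each). Its log2 fold change was -0.91 (edgeR adjusted p = 0.378). Pparg stood at -0.39 (edgeR adjusted p = 0.795), and Il5, which was not tested, had 8 counts in Nfkb2-/- and 41 in wild type. Irf4, a transcription factor of effector Tregs, was lower without overlap in Nfkb2-/-, at 159.8 ± 42.9 CPM, against 301 ± 33.3 CPM in wild type (SD, n = 3 each), a log2 difference of -0.91 (edgeR adjusted p = 0.0988, and 0.04 with the replicate number as a block). The number that rose was 0 without any one of the Nfkb2-/- libraries or wild-type replicate 3, 1 without wild-type replicate 2, and 0 with the Y-linked covariate. When wild-type replicate 1 was left out, 5 rose and 3 fell. The replicate block left 3 higher and added Irf4 as lower. These genes were listed with earlier results of these libraries known, so the list is not independent evidence of its direction.

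Among genes of T cells that respond to IL-12 and IL-18, 1 of 8 rose and 0 fell by edgeR, beside 1.01% and 0.405% of all genes tested. DESeq2 called 2 higher and limma-voom 1, and the median log2 fold change was 0.24. Eomes, a T-box transcription factor that is also a natural killer cell gene, was at 21, 15 and 21.8 CPM in Nfkb2-/- and 4.26, 7.60 and 7.31 CPM in wild type (log2 fold change 1.6, SE 0.274, edgeR adjusted p = 0.0364). Runx3, a partner of T-box factors, was at 309.5, 300.3 and 326 CPM in Nfkb2-/- and 84.9, 171 and 142 CPM in wild type (log2 fold change 1.23, edgeR adjusted p = 0.0558, DESeq2 adjusted p = 0.000221, and edgeR adjusted p = 0.0414 in the blocked fit, which called 2 genes higher). Tbx21, the regulator of type 1 T cells, and Ifng, which IL-18 helps to induce, had log2 fold changes of 0.49 (SE 0.355) and -0.43 (SE 0.542). Eomes lost its call without any single library other than wild-type replicate 1, with edgeR adjusted p from 0.0911 to 0.203 in those 5 fits, and also with the Y-linked covariate (0.563). Of 7 Treg identity genes 0 were called by edgeR, beside 1.42% of all genes tested. An unadjusted p under 0.05 was found for 2, and DESeq2 called 1 and limma-voom 0. Ikzf2, a Treg transcription factor, stood at a log2 fold change of 0.65 (edgeR adjusted p = 0.0875), and Il2ra, the high-affinity IL-2 receptor chain, at -0.38 (0.305).

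The genes whose pattern was most like that of Il1rl1 over the 6 libraries were Gata3, Slc39a4, Megf9, Plekhb2 and Lpcat1, with Pearson r of log2 CPM of 0.999, 0.996, 0.996, 0.991 and 0.990 among 7914 protein-coding genes whose mean reached 10 CPM. For Il18r1 they were Med15, Cd80, Ranbp6, Rab26 and March6, at 0.995, 0.995, 0.994, 0.992 and 0.990. The 6 points fall into the 2 genotypes, so such an r includes the step between genotypes and is given as a description. None of the 5 genes nearest to Il1rl1 was among the 5 nearest to Il18r1. Log2 fold changes of those like Il1rl1 ran from 0.34 for Plekhb2 to 1.78 for Megf9, and of those like Il18r1 from 0.25 for March6 to 2.19 for Rab26.

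Markers of some other cells were read from lists, and no such list was made for T cells other than Tregs. The part of these cells in the receptor differences was not tested. Of 6 mast cell and basophil markers, 2 were tested and 1 rose by edgeR, beside 1.01% of all genes tested. The 6 summed to 23.5, 23.6 and 31.1 CPM in Nfkb2-/- and 11.8, 12.4 and 9.41 CPM in wild type. Most of that sum was Kit, a receptor kinase also found outside mast cells, at 19.4, 19.0 and 24.6 CPM in Nfkb2-/- and 9.87, 6.73 and 5.46 CPM in wild type (log2 fold change 1.5, edgeR adjusted p = 0.0341). Kit kept its call without wild-type replicate 1 but lost it without any other single library, at edgeR adjusted p from 0.081 to 0.198, and with the Y-linked covariate (0.417). The defining markers Mcpt8, Cpa3 and Ms4a2 were at most 0.248 CPM in any library. Of 5 markers of group 2 innate lymphoid cells, which carry ST2, 4 were tested and all had a lower mean in Nfkb2-/-. The list summed to 15.2 to 18.3 CPM in Nfkb2-/-, against 25.2 to 31.6 CPM in wild type. Of its defining markers, Il17rb overlapped between genotypes (log2 fold change -0.28), and Il5 had 8 counts in Nfkb2-/- and 41 in wild type. Gata3, Rora, Klrg1 and Areg, whose means were higher in Nfkb2-/-, were not in this list. Nothing about the number of these cells is therefore read from it. Natural killer cell markers summed to 18.7 to 29.8 CPM in Nfkb2-/- and 8.57 to 14.5 CPM in wild type, mostly Eomes and Prf1, while the defining marker Ncr1 was at most 0.489 CPM. Neutrophil and monocyte markers summed to 14.2 to 35.8 CPM in Nfkb2-/- and 11.7 to 60.7 CPM in wild type. Cd79a, a chain of the B cell receptor, fell, at 3.48, 4.93 and 7.57 CPM in Nfkb2-/- and 20.1, 48.5 and 35.6 CPM in wild type (log2 fold change -2.7, SE 0.392, edgeR adjusted p = 0.023). Its call too was lost without any single library other than wild-type replicate 1 (edgeR adjusted p from 0.0614 to 0.154) and with the Y-linked covariate (0.604). The part of B cells, of sex and of wild-type replicate 1 in the receptor differences was not tested. No fit held a B cell term, and the Y-linked covariate differs with genotype, so it cannot separate sex from genotype. For wild-type replicate 1 only the fits without it are given.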

How the data were processed

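The authors deposited raw read counts for each gene, in 1 file per library. The submitters' processing notes name HISAT2, HTSeq, FastQC and DESeq2 with the build GRCm38, and give no versions. The kit does not mark strand, per the labels' protocols. Of 55573 gene identifiers, 55394 matched GENCODE M21 (GRCm38), which gave symbols, positions and exon lengths, and 28459 genes had no count. The members and lists were chosen with earlier results of these data known. The test was edgeR 4.0.16 in R 4.3.3 (filterByExpr, TMM, robust quasi-likelihood fit on genotype alone, Benjamini-Hochberg adjustment over 13347 genes, threshold 0.05; common biological coefficient of variation 0.228), and the code was tested on simulated counts. CPM use TMM-scaled library sizes, and p-values measure the spread between these libraries only. All pairs of libraries differed beyond counting noise (chi-square over its degrees of freedom 5.82 or more).

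From each list the called genes were named, up to 4 by p, or otherwise the 2 with the smallest p, with every tested neighbour within 1 Mb; other genes named from the lists were chosen after their values were seen. Log2 CPM for likeness used a prior count of 2. The IL-36 genes were matched through RefSeq synonyms (Il1f5, Il1f6, Il1f8 and Il1f9), and sequences were found for 7 of the 8 receptor genes. Same-numbered libraries deviated together from their genotype's mean, with r of 0.364, 0.267 and 0.111 across genes, although the r of Nfkb2-/- replicate 3 was higher with wild-type replicate 2 (0.251) than with its own number. The labels do not say what a replicate number marks, so the main fit held no block. A fit with the replicate number as a block was an alternative. Others were RLE and upper-quartile scaling, other count filters, DESeq2 1.42.0, limma-voom (limma 3.58.1), X and Y genes left out, the Y-linked level as a covariate, and each library left out in turn. Figures were drawn with matplotlib 3.10.9. The B cell marker list is not reported here as a whole.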

Additional observations from a re-analysis of the deposited data

How the results depend on the processing

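The fit over all genes was repeated under 15 alternatives. The receptor genes were selected on this contrast in these libraries, so their calls over the alternatives describe the fits and support nothing about the family. Il1rl1 and Il18r1 were called higher in 11 of them and Il18rap in 10, with a positive log2 fold change in all 15. With the Y-linked covariate their log2 fold changes were 1.77, 1.34 and 1.72 and none was called. Il1r1 changed sign in limma-voom (0.09), in the blocked fit (0.02) and with the Y-linked covariate (0.30), and Il1rap with that covariate (0.20). With each library left out in turn, log2 fold changes ran from -0.29 to 0.36 for Il1r1, from -0.19 to 0.07 for Il1rap, from 1.38 to 1.62 for Il1rl1, from 1.17 to 1.46 for Il18r1 and from 1.24 to 1.65 for Il18rap, and the number of receptor genes called higher from 0 to 3. The number of all genes called higher and lower, 135 and 54, was 292 and 174 with no count filter, 428 and 252 by DESeq2, 196 and 93 in the blocked fit and 6 and 1 with the Y-linked covariate, and over each library left out it ran from 6 to 628 and from 1 to 606, the highest without wild-type replicate 1. Of genes from ST2-bearing Tregs, 3 rose and 2 fell with no count filter, 5 and 2 by DESeq2, 3 and 1 in the blocked fit and 0 and 0 with the Y-linked covariate, with ranges of 0 to 5 and 0 to 3 over each library left out. Of IL-12 and IL-18 responsive genes, 2 rose with no count filter, by DESeq2 and in the blocked fit, and 0 with the Y-linked covariate, with a range of 0 to 2. Treg identity genes called higher were 1 with no count filter and by DESeq2, with a range of 0 to 1, and neighbours of the cluster 1 by DESeq2, with a range of 0 to 1. The blocked fit changed no call of a receptor gene. In it the log2 fold changes were 1.48 (SE 0.451) for Il1r2, 1.04 (SE 0.392) for Il1rl2 and -0.43 (SE 0.125) for Sigirr. With the longest transcript as length, 2 receptor genes changed rank in each genotype, and with each library left out 0 to 4 did in Nfkb2-/- and 0 to 3 in wild type. The causes of these shifts were not tested. Il1r1 and Il1rl2, at 13 to 52 counts per library, are limited by depth.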
